A study of Mus musculus with 18 samples.

Results

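Clec4d, Clec4e, Clec4n, Clec5a, Clec7a, Clec12a, Trem1 and Trem3 encode pattern recognition and amplifier receptors of myeloid cells, and their transcripts were followed in mouse blood after gamma irradiation. They were taken as the 11 probes, of 41174 on the array, whose gene name is one of these 8. The study profiled whole blood of 18 male C57BL/6N mice, aged 8 to 12 weeks, drawn by cardiac puncture 6 hours after a single exposure, with 1 array per mouse. A group of 7 mice was sham treated (0 Gy), 5 mice received 2 Gy and 6 received 8 Gy from a cesium source. RNA came from RiboPure extraction in 5, 4 and 6 mice at 0, 2 and 8 Gy and from PAXgene extraction in 2, 1 and 0, and globin RNA was removed from all of it. The question named by the study is which blood transcripts mark a radiation exposure.

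The C-type lectin receptors bind sugars, glycolipids and products of damaged cells, and the Trem receptors amplify inflammatory signals. Most carry no signalling motif of their own: Trem1, Trem3 and Clec5a work through the adaptor DAP12 (Tyrobp), and Clec4d, Clec4e and Clec4n work through the Fc receptor gamma chain (Fcer1g). Clec7a (Dectin-1) binds fungal beta-glucan and recruits the kinase Syk through its own tail, whereas Clec12a carries an inhibitory motif. In blood, neutrophils and monocytes are the main cells known to carry them.

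The genes lie in groups. In the RefSeq gene order of the GRCm38.p6 build, Clec4n, Clec4d and Clec4e are direct neighbours on chromosome 6, Trem1 and Trem3 are direct neighbours on chromosome 17, and 4 other coding genes lie between Clec12a and Clec7a. Since these receptors moved together in the results, their promoters are shown from 250 to 51 bases before the annotated start, for 5 genes of the 6 with an entry in the RefSeq table. Capitals mark GAGGAA or its reverse complement TTCCTC, the core that the myeloid factor PU.1 is known to recognise. It was chosen after these sequences had been read.
Trem1 promoter, chr17:48232489-48232688, plus strand: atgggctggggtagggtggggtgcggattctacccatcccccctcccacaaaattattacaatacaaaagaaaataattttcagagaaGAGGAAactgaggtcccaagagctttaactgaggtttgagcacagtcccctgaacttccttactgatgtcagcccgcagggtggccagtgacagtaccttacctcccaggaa
Clec5a promoter, chr6:40585856-40586055, minus strand: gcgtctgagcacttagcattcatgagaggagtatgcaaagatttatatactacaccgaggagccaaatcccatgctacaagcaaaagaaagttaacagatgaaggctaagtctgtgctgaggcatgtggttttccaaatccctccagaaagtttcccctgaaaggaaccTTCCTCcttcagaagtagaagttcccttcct
Clec4e promoter, chr6:123289922-123290121, minus strand: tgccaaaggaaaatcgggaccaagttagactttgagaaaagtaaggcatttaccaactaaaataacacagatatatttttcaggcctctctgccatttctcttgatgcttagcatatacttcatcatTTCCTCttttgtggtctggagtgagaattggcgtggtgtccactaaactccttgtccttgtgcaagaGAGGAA
Clec4d promoter, chr6:123261857-123262056, plus strand: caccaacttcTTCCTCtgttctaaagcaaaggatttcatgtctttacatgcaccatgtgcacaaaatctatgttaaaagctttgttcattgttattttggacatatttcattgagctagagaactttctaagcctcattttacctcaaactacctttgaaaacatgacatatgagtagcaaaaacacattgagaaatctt
Clec7a promoter, chr6:129472830-129473029, minus strand: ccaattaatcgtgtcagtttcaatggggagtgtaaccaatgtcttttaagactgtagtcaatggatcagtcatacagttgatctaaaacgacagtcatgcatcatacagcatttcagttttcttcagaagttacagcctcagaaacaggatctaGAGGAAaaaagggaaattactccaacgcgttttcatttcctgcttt
GAGGAA was found, on either strand, in 6 of 6 windows (Clec12a is the sixth), against 18.8% of 32851 windows of the same 200 bases over all genes in the table. GAGGAA was picked from these windows, so 6 of 6 is no test against that share. It lay 162 bases before the start in Trem1, 81 in Clec5a, 240 in Clec4d, 96 in Clec7a and 61 in Clec12a, and at 123 and 56 in Clec4e. TTGCNNAA, a C/EBP-type motif, was found in 2 of 6 (Clec4e and Clec12a), against 8.11% of all windows. TGANTCA, an AP-1-type motif, was found in 1 of 6 (Clec12a), against 5.57%. No match of one motif overlapped a match of another. These matches describe the letters of the windows, and the arrays measured no binding.

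The positions of the probes are those in the scanner files, on the mm7 build. Of the 11 probes, 2 spanned far more genome than their 60 bases (1907 for Clec4n and 2915 for Clec5a), so they read spliced RNA, and these are shown.
Clec4n probe, chr6:123281342-123283248, plus strand: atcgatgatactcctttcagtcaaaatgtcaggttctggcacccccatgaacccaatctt
Clec5a probe, chr6:40512292-40515206, minus strand: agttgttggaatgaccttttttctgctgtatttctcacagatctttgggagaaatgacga
The other 9 covered 60 bases each: Trem1 at chr17:46389066-46389125 and chr17:46387503-46387562, Trem3 at chr17:46401076-46401135, and Clec5a at chr6:40507043-40507102 and chr6:40505142-40505201. Clec4e was read at chr6:123319640-123319699, Clec4d at chr6:123311550-123311609, Clec7a at chr6:129485033-129485092 and Clec12a at chr6:129388174-129388233. No annotation of this build was used here, so exons and untranslated regions are not given for them.

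Every level below is the log2 of the scanner's processed signal minus the log2 of that array's 75th percentile, so 0 is the brightness of the 75th percentile spot. The 75th percentile itself was 148 to 443 intensity units at 0 Gy, 49.2 to 198 at 2 Gy and 61.3 to 247 at 8 Gy. limma fitted 1 model with dose and extraction kit to the 18 arrays, and a gene passed at a Benjamini-Hochberg adjusted p under 0.05 over 13637 genes. Precision is limited by how many arrays there were. Of the 8 genes, 7 had a probe well above background on 18 of 18 arrays. The single Clec12a probe was well above background on 0 of 18 arrays, so Clec12a was not tested and no fold is given for it.

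Arrays of one dose did not all behave alike. The array labelled 0 Gy replicate 5 had a mean level of 2.44 for Cdkn1a, Phlda3 and Ccng1, textbook targets of p53, against -1.17 to 0.01 on the other 6 arrays at 0 Gy, 1.82 to 2.76 at 2 Gy and 2.78 to 3.12 at 8 Gy. Its mean B cell marker level was 0.22, against 2.22 to 3.37 on those 6. It stays at 0 Gy as labelled, and counts at 8 Gy against 0 Gy are given with and without it. It shared its slide with 2 Gy replicate 3, which had the lowest level of its group in 7 of 7 measured receptors. That 2 Gy array had a mean of 1.82 for the p53 targets and -0.36 for the B cell markers, against -1.17 to 0.01 and 2.22 to 3.37 on those 6 arrays at 0 Gy. Both arrays were singled out after these values were seen.

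At 8 Gy the receptor transcripts stood above their 0 Gy level. Of the 7 genes tested, 7 rose and 0 fell, against 7.22% of all genes tested that rose and 4.76% that fell. The fold was 7.00 for Trem1, 4.74 for Clec5a, 3.78 for both Clec4n and Trem3, 3.66 for Clec4d, 3.63 for Clec4e and 2.71 for Clec7a. Whole blood was measured, so more cells of a type and more RNA per cell cannot be told apart. At 2 Gy the 7 genes lay between the other doses on average, and 0 of 7 passed against 0 Gy.

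**Figure D1:**
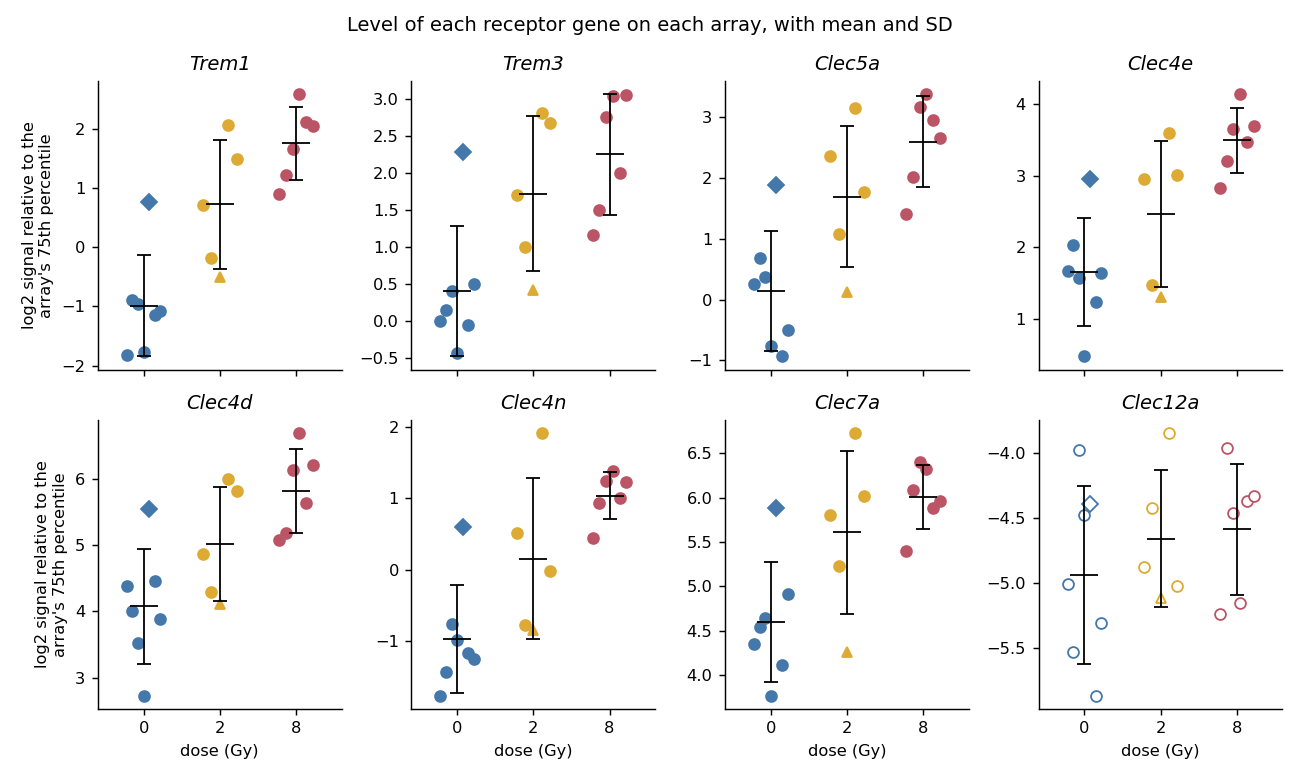
Log2 signal relative to the array's 75th percentile (vertical axis) of the 8 receptor genes on each of 18 arrays, by dose in Gy (horizontal axis); bars give the mean and SD, a diamond marks 0 Gy replicate 5, a triangle marks 2 Gy replicate 3, and open symbols are not well above background. On the Trem1 probe plotted, 8 Gy lies above all 7 arrays at 0 Gy, while the other 6 measured genes, like the second Trem1 probe, which is not plotted, overlap 0 Gy only through the diamond, and Clec12a is open on all 18 arrays.

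The receptors that use DAP12 were led by Trem1, which strengthens the response of neutrophils and monocytes to microbial and damage signals. At 0 Gy its lowest, median and highest levels were -1.83, -1.07 and 0.76. At 2 Gy the 5 arrays read 0.71, -0.18, -0.50, 2.07 and 1.49, and at 8 Gy the lowest, median and highest were 0.90, 1.86 and 2.58. On this probe, the one with the highest mean, the 8 Gy arrays were all above the 0 Gy arrays, a separation found in 0.873% of all genes. The 2 Gy arrays overlapped both groups. Trem1 rose by 2.81 ± 0.48 (SE) at 8 Gy against 0 Gy (limma, adjusted p = 0.00898), the 30th largest rise of the 13637 genes. A second Trem1 probe, at chr17:46387503-46387562, rose by 2.82 ± 0.53 (adjusted p = 0.00896 over 22038 probes, of which 5.49% rose). On that probe the doses overlapped, with 8 Gy replicate 1 at 0.08 and 0 Gy replicate 5 at 0.74.

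Trem3, an activating receptor of mouse macrophages that lies next to Trem1, had levels of -0.44, 0.14 and 2.28 (lowest, median, highest) at 0 Gy. At 2 Gy it read 1.70, 1.00, 0.42, 2.81 and 2.67, and at 8 Gy the lowest, median and highest were 1.16, 2.37 and 3.05. The highest 0 Gy value is that of replicate 5, and the other 6 arrays reached at most 0.49, below all arrays at 8 Gy. Trem3 rose by 1.92 ± 0.51 at 8 Gy against 0 Gy (limma, adjusted p = 0.0313).

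Clec5a (MDL-1), a DAP12-coupled lectin-like receptor of monocytes and neutrophils, had levels of -0.94, 0.25 and 1.88 at 0 Gy. At 2 Gy it read 2.36, 1.07, 0.12, 3.15 and 1.77, and at 8 Gy the lowest, median and highest were 1.40, 2.81 and 3.38. Only 0 Gy replicate 5 reached into the 8 Gy range. It rose by 2.24 ± 0.52 at 8 Gy against 0 Gy (limma, adjusted p = 0.0207). Its other probes were dim. The one at chr6:40505142-40505201 exceeded background clearly in 4 of 6 mice at 8 Gy and 1 of 7 at 0 Gy, so no fold is given for it. The spliced probe shown above did so in 2 of 6 mice at 8 Gy and 0 of 7 at 0 Gy. Its remaining arrays at 8 Gy were not well above background, so no fold is given for it either.

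The receptors that use the Fc receptor gamma chain rose by nearly the same amount. Clec4e (Mincle), which binds the mycobacterial cord factor and a protein released by dead cells, had levels of 0.48, 1.64 and 2.95 (lowest, median, highest) at 0 Gy. At 2 Gy it read 2.96, 1.47, 1.30, 3.60 and 3.01, and at 8 Gy the lowest, median and highest were 2.82, 3.56 and 4.14. The 8 Gy and 0 Gy ranges met only in 0 Gy replicate 5, and the other 6 arrays stayed at or below 2.03. The rise was 1.86 ± 0.43 (limma, adjusted p = 0.0206).

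Clec4d (MCL), a partner of Mincle that also binds cord factor, had levels of 2.73, 4.00 and 5.54 at 0 Gy. It read 4.86, 4.29, 4.11, 5.99 and 5.81 at 2 Gy, and at 8 Gy its lowest, median and highest were 5.07, 5.88 and 6.68. As with its neighbour, 8 Gy lay above 0 Gy apart from replicate 5. The rise was 1.87 ± 0.44 (limma, adjusted p = 0.0215).

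Clec4n (Dectin-2), which binds fungal mannans, had levels of -1.77, -1.17 and 0.60 at 0 Gy. It read 0.51, -0.78, -0.84, 1.91 and -0.02 at 2 Gy, and at 8 Gy the lowest, median and highest were 0.44, 1.11 and 1.38. The 8 Gy arrays lay close together, with an SD of 0.33 (n = 6) against 1.13 at 2 Gy (n = 5) and 0.76 at 0 Gy (n = 7). The rise at 8 Gy was 1.92 ± 0.44 (limma, adjusted p = 0.0196).

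Clec7a, the receptor with a Syk-recruiting tail of its own, had levels of 3.77, 4.54 and 5.88 at 0 Gy. It read 5.80, 5.24, 4.26, 6.73 and 6.02 at 2 Gy, and at 8 Gy the lowest, median and highest were 5.40, 6.02 and 6.40. The 0 Gy replicate 5 array lay among the 8 Gy arrays, and 2 Gy replicate 4 lay above them all. The rise was 1.44 ± 0.39 (limma, adjusted p = 0.0327), which among the 7 receptors was the smallest. Clec12a, the inhibitory member, gave signals of 3.94 to 9.65 intensity units at 8 Gy, 3.41 to 7.72 at 2 Gy and 3.37 to 13.7 at 0 Gy, none of them well above background.

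The rises did not all survive every change in the arrays used. Without the array labelled 0 Gy replicate 5, 7 of 7 rose (14.4% of all genes did), by 1.72 for Clec7a to 3.20 for Trem1, and the 8 Gy arrays lay above the remaining 0 Gy arrays in 7 of 7 genes, against 5.53% of all genes. Leaving out each of the 18 arrays in turn kept the rise of Trem1 past the threshold 18 times, of Clec4e 17, of Clec4n and Clec5a 16, of Clec4d 15, of Trem3 10 and of Clec7a 8. The count fell to 2 of 7 without 0 Gy replicate 1, to 3 without 0 Gy replicate 2 or 8 Gy replicate 4, and to 4 without 8 Gy replicate 6. Calls over all genes moved too, to between 2.01% and 3.15% in these 4 fits, against 12.0% with all arrays (either direction). With the brightness of the array as a covariate 0 of 7 passed (adjusted p from 0.140 to 0.306), as did 0 of all 13637 genes. The receptors' differences were then 1.11 to 2.35, and 7 of 7 had an unadjusted p under 0.05, as did 1888 of all genes.

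Slides held unequal mixes of doses. With the slide as a random block 5 of 7 rose, where 4.54% of all genes were called. With a fixed term for slide or for scan day, added after seeing the data, 0 of 7 passed. In either fit 0 of all 13637 genes passed. The differences were then 0.92 to 2.32 with slide and 1.06 to 2.44 with scan day. With the slide term 1 of 7 had an unadjusted p (limma) under 0.05, as did 1215 of all genes. With the scan day term 5 of 7 did, as did 2534 of all genes. Only slide 1 held both 8 Gy and 0 Gy arrays, 2 and 1. There the difference was 3.95 for Trem1, 3.07 for Clec4n, 3.02 for Clec5a, 2.89 for Trem3, 2.23 for Clec4e, 2.02 for Clec4d and 2.01 for Clec7a. On scan day 4, 8 Gy replicate 6 exceeded 0 Gy replicate 5 by 0.08 for Clec7a to 1.29 for Trem1.

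**Figure D2:**
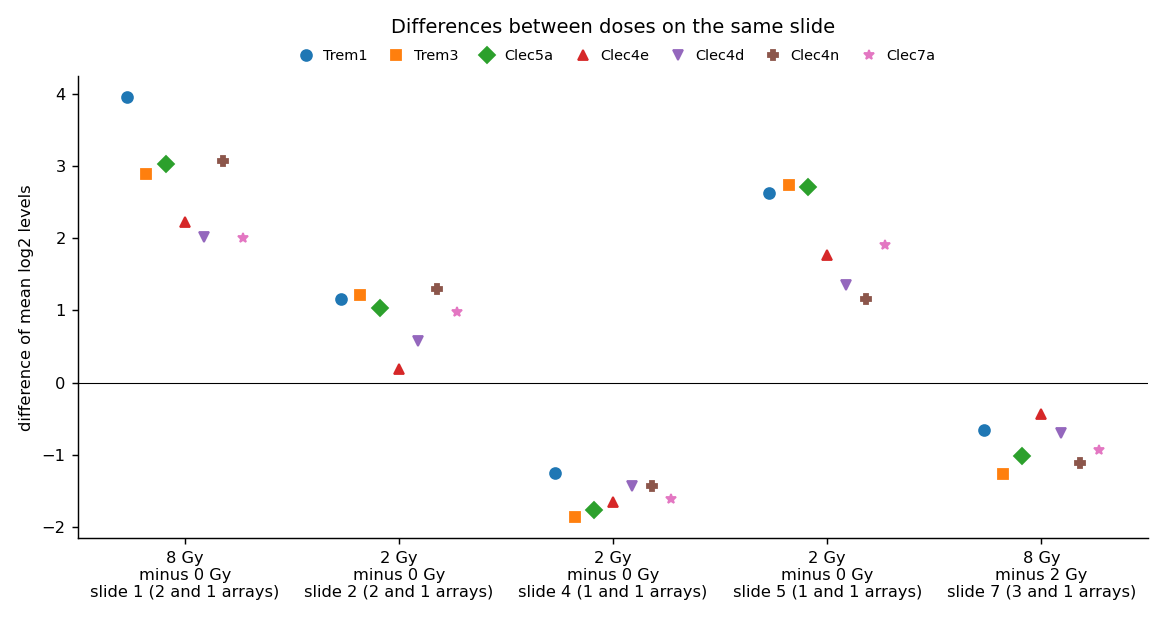
Difference of mean log2 levels between doses (vertical axis) for the 7 measured receptors, on each slide that held both doses (horizontal axis, with the number of arrays of each dose). All 7 genes lie at or above 2.01 on slide 1, and all 7 lie below 0 on slides 4 and 7.

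For 2 Gy against 0 Gy, 0 of 7 receptors passed, where 0.0293% of all genes were called higher and 0.0587% in either direction, and 6 of 7 had an unadjusted p under 0.05, where 10.7% of all genes were higher at that threshold. At the level of probes 0 of 9 passed, against 0.0408% of probes called higher. In 0 of 7 genes did the 2 Gy arrays lie above all 0 Gy arrays, against 0.169% of all genes. The largest difference was that of Trem1, 1.73 ± 0.48 (limma, adjusted p = 0.104), followed by Clec5a with 1.49 ± 0.52 (0.157) and Trem3 with 1.34 ± 0.51 (0.178). Clec4n differed by 1.10, Clec7a by 1.02, Clec4d by 0.98 and Clec4e by 0.82, with adjusted p from 0.179 to 0.290. Without 0 Gy replicate 5, Trem1 (2.07), Clec5a (1.77), Trem3 (1.70) and Clec7a (1.26) rose, 4 of 7, where 3.55% of all genes did. Trem1 was then the 1 receptor of 7 whose 2 Gy arrays lay above all 0 Gy arrays, against 1.81% of all genes. With both arrays of slide 4 left out, an alternative added after seeing the data, 7 of 7 rose, by 1.33 to 2.33. There 17.8% of all genes were called in either direction. Those arrays were the highest at 0 Gy and the lowest at 2 Gy in 7 of 7 receptors. Leaving them out was bound to widen the difference, so 7 of 7 is no test of a rise at 2 Gy.

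Within slides the 2 Gy differences disagreed. On slide 2, with 2 arrays at 2 Gy and 1 at 0 Gy, they ran from 0.19 for Clec4e to 1.30 for Clec4n. On slide 5, with 1 PAXgene array of each dose, they ran from 1.15 for Clec4n to 2.73 for Trem3. On slide 4, where 2 Gy replicate 3 stood beside 0 Gy replicate 5, all 7 were negative, from -1.86 for Trem3 to -1.25 for Trem1.

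For 8 Gy against 2 Gy, 0 of 7 passed, where 0% of all genes did. In 0 of 7 genes did the 8 Gy arrays lie above all 2 Gy arrays, against 0.0660% of all genes. Clec4e differed by 1.04 ± 0.46 and Trem1 by 1.08 ± 0.51, both with an unadjusted p under 0.05, where 1.86% of all genes were higher at that threshold. Their limma adjusted p was 0.931. The other 5 differed by 0.42 to 0.90. On slide 7, which held 3 arrays at 8 Gy and 2 Gy replicate 4, all 7 differences were negative, from -1.26 for Trem3 to -0.44 for Clec4e. That 2 Gy array had the highest level of its group in 7 of 7 receptors, and its 75th percentile signal, 49.2 units, was the lowest of the 18 arrays. Between kits, 0 of 7 passed (PAXgene against RiboPure, 3 and 15 arrays), where 2.41% of all genes were called higher and 1.45% lower, 3.86% in all.

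Some receptors rose more than others, though the calls depended on the arrays used. Differences of 2 receptors within an array do not depend on a scaling by 1 number per array, so all 21 pairs were compared at all 3 pairs of doses by exact 2-sided permutation tests, adjusted over 63. These tests were added after the member values were seen. Unlike the limma model, they and the exact tests below have no term for kit, and none for slide. Trem1 rose more than Clec7a by 1.33, than Clec4d by 0.99, than Clec4e and than Trem3 by 0.89, at 8 Gy against 0 Gy (exact permutation, adjusted p = 0.0367 for each of the 4). Trem1 exceeded Clec4n by 0.73 and Clec5a exceeded Clec7a by 1.05 with an adjusted p of 0.0551 in the same exact tests. At 2 Gy against 0 Gy, Trem1 rose more than Clec4e by 0.89 (exact permutation, adjusted p = 0.0477). The direct neighbours Clec4d, Clec4e and Clec4n differed among themselves by 0.10 to 0.26 at 8 Gy against 0 Gy, with unadjusted exact p from 0.499 to 0.654. The 5 calls became 0 without 8 Gy replicate 4, without 8 Gy replicate 5 or on RiboPure arrays alone, 3 without 0 Gy replicate 1, 3, 5, 6 or 7, and 13 with quantile normalization or the deposited table.

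Other genes of the same families beside these receptors differed by less between doses. With all arrays 0 of 6 passed, where 12.0% of all genes were called in either direction. All tested genes of the Trem group (Trem2, Treml1 and Treml4) and of the Clec4a and Clec4b group (Clec4a2, Clec4a3 and Clec4b1) were compared with the receptors of their cluster. At 8 Gy against 0 Gy, Trem2, a receptor of macrophages and microglia, differed by -0.09 ± 0.29, Treml4 by 0.21 ± 0.28 and Treml1, a platelet receptor, by 0.95 ± 0.40, with adjusted p (limma) of 0.867, 0.641 and 0.109. Clec4a2, an inhibitory lectin, differed by 0.94 ± 0.32, Clec4b1 by 0.65 ± 0.30 and Clec4a3 by -0.37 ± 0.23, with adjusted p (limma) of 0.0580, 0.141 and 0.264. Without 0 Gy replicate 5, Treml1 rose, as 1 of the 11 platelet markers that did. Values of the other neighbours in that fit are not given here. In 15 of 15 comparisons the receptor rose more than the neighbour within arrays, by 0.85 for Clec4d over Clec4a2 to 2.65 for Trem1 over Trem2 (exact 2-sided permutation, adjusted p from 0.00175 to 0.0157). The count was 15 with each of the 18 arrays left out in turn. The 5 arrays at 2 Gy enter none of these comparisons, so leaving them out could change nothing. These pairs were chosen with the receptors' results known.

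**Figure D3:**
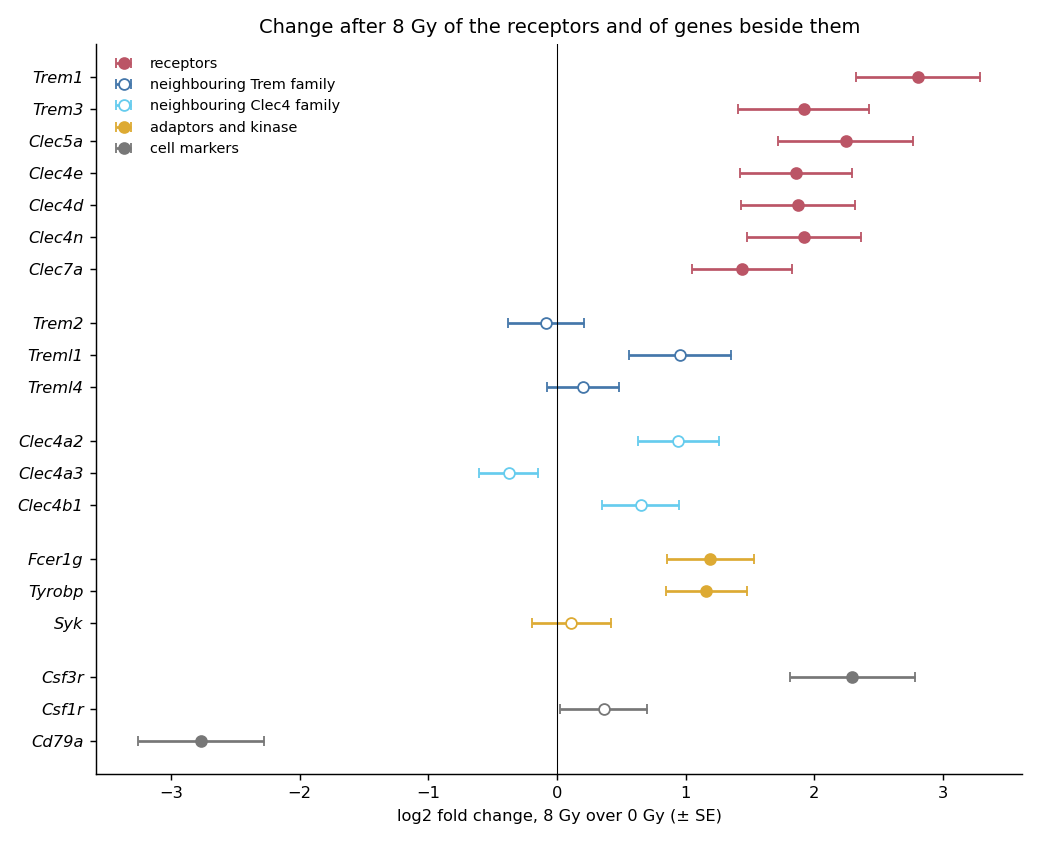
Log2 fold change of 8 Gy over 0 Gy with its standard error (horizontal axis) from the limma model on 18 arrays, for the 7 measured receptors, neighbouring family genes, adaptors with the kinase Syk, and 3 cell markers (vertical axis); filled symbols passed an adjusted p of 0.05. The receptors lie from 1.44 to 2.81, Csf3r lies among them at 2.30, Syk lies at 0.11 and Cd79a, which was well above background in 3 of 6 mice at 8 Gy, at -2.77.

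The adaptors rose by less than most of the receptors that need them. Tyrobp, which encodes DAP12, averaged 6.64 ± 0.41 at 8 Gy (SD, n = 6) and 5.68 ± 0.53 at 0 Gy (n = 7) and rose by 1.16 ± 0.31 (limma, adjusted p = 0.0324). Fcer1g averaged 7.03 ± 0.42 at 8 Gy and 5.93 ± 0.67 at 0 Gy and rose by 1.19 ± 0.34 (limma, adjusted p = 0.0393). Syk, the kinase that both adaptors recruit, averaged 3.84 ± 0.21 at 8 Gy and 3.63 ± 0.59 at 0 Gy, a difference of 0.11 ± 0.30 (limma, adjusted p = 0.832). Within arrays, Trem1 rose more than Tyrobp by 1.77, Clec5a by 1.49 and Trem3 by 0.88. Clec4n rose more than Fcer1g by 0.90 and Clec4e by 0.74, and Clec7a rose more than Syk by 1.20. In these 6 of 7 comparisons the adjusted p was 0.00816 to 0.0292 (exact 2-sided permutation), and the seventh, Clec4d against Fcer1g, gave 0.64 with an adjusted p of 0.107. On RiboPure arrays alone 3 of the 7 passed. These 7 comparisons were not among the tests planned.

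Of the 21 tested genes of a list of adaptors and proximal signalling, 4 rose and 0 fell at 8 Gy against 0 Gy. Over all genes tested 7.22% rose and 4.76% fell. The median difference was 0.62 in the list, against 0.06 over all genes tested. Beside Tyrobp and Fcer1g the 4 were Ptpn11, a phosphatase (0.96 ± 0.28, limma, adjusted p = 0.0405), and Fgr, a Src family kinase (1.38 ± 0.41, limma, adjusted p = 0.0410). Without 0 Gy replicate 5, 8 rose and 1 fell, where 14.4% of all genes rose. Card9, the adaptor downstream of Syk, was not analysed here.

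Of 15 tested genes of a list of known outputs of these receptors, 2 rose and 0 fell at 8 Gy, with a median of 0.69. The shares over all genes tested were 7.22% and 4.76%. Il1b, the interleukin 1 beta gene, rose by 2.19 ± 0.52 (limma, adjusted p = 0.0212), and Icam1, an adhesion molecule, rose by 1.02 ± 0.23 (limma, adjusted p = 0.0193). Nfkbiz, an NF-kB cofactor, differed by 0.96 and the chemokine gene Cxcl2 by 2.09 (limma, adjusted p = 0.0524 and 0.0551). Cxcl2 was well above background in 5 of 6 mice at 8 Gy and 5 of 7 at 0 Gy. Without 0 Gy replicate 5, 5 of the 15 rose and 0 fell, where 14.4% of all genes rose.

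Among other C-type lectins of myeloid cells, 1 of 19 tested genes rose and 0 fell at 8 Gy, with a median of 0.07. Over all genes tested 7.22% rose and 4.76% fell. The 1 gene of the list that rose was Cd93, a receptor of myeloid and endothelial cells (0.82 ± 0.25, limma, adjusted p = 0.0433). Clec1b, a platelet receptor, differed by 1.10 and Klrb1b by 0.93, with adjusted p (limma) of 0.0519 and 0.0746. Without 0 Gy replicate 5, 5 of the 19 rose and 0 fell, where 14.4% of all genes rose. In the list of Trem-like and Cd300 paired receptors 9 of 17 rose and 0 fell, with a median of 1.23, and without that array 13 rose. The 4 with the smallest p were the inhibitory receptors Lilrb4a (1.73 ± 0.34) and Pirb (1.43 ± 0.30) and the activating Cd300ld (1.73 ± 0.36) and Pilrb1 (1.29 ± 0.28), with adjusted p (limma) from 0.0106 to 0.0148. At 2 Gy against 0 Gy and at 8 Gy against 2 Gy, 0 genes of these 4 lists passed. Over all genes 0.0587% and 0% did.

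Markers of the cells that carry these receptors were read on the same arrays. Over all genes tested 7.22% rose and 4.76% fell at 8 Gy, and 14.4% rose without 0 Gy replicate 5. Of 13 tested markers of mature neutrophils, 11 rose and 0 fell at 8 Gy against 0 Gy, with a median of 2.29. The count was 11 also without 0 Gy replicate 5. They include Il1r2, a decoy receptor for interleukin 1 (4.03 ± 0.76), Mcemp1 (1.99 ± 0.40), Mmp9, a gelatinase (2.29 ± 0.46), and Fpr2, a formyl peptide receptor (2.72 ± 0.55), with adjusted p (limma) from 0.00928 to 0.0117. Of 10 markers of neutrophil precursors and granules, 3 rose and 0 fell, with a median of 0.38. Without 0 Gy replicate 5, 4 rose. With all arrays the 3 were Lcn2 (3.23), Cd177 (1.55) and Mmp8 (3.36), and the fourth by p, Ngp, differed by 2.28 with an adjusted p (limma) of 0.0689. Of 14 monocyte markers 0 rose and 1 fell, with a median of 0.19. The 1 that fell was Irf8, a transcription factor of monocytes and B cells (-1.18 ± 0.26, limma, adjusted p = 0.0156), and without 0 Gy replicate 5, 3 rose and 1 fell. Lyz2 (0.79), Ifi204 (0.82) and Ms4a4c (-0.66) followed it by p and did not pass.

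The summed picture of each array was similar. The mean log2 level of the neutrophil markers was 2.50 to 4.89 at 0 Gy, with a median of 2.90, 3.56 to 5.99 at 2 Gy, with a median of 4.85, and 4.40 to 6.26 at 8 Gy, with a median of 5.66. The mean of the 7 receptors was 0.43 to 1.30 on 6 arrays at 0 Gy and 2.84 on replicate 5, 1.27 to 3.75 at 2 Gy and 2.46 to 3.93 at 8 Gy. Monocyte markers averaged 2.71 to 3.89 at 0 Gy, 2.92 to 4.05 at 2 Gy and 3.37 to 3.84 at 8 Gy. The part of a higher level of neutrophil transcripts in the receptors' rises was not tested.

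**Figure D4:**
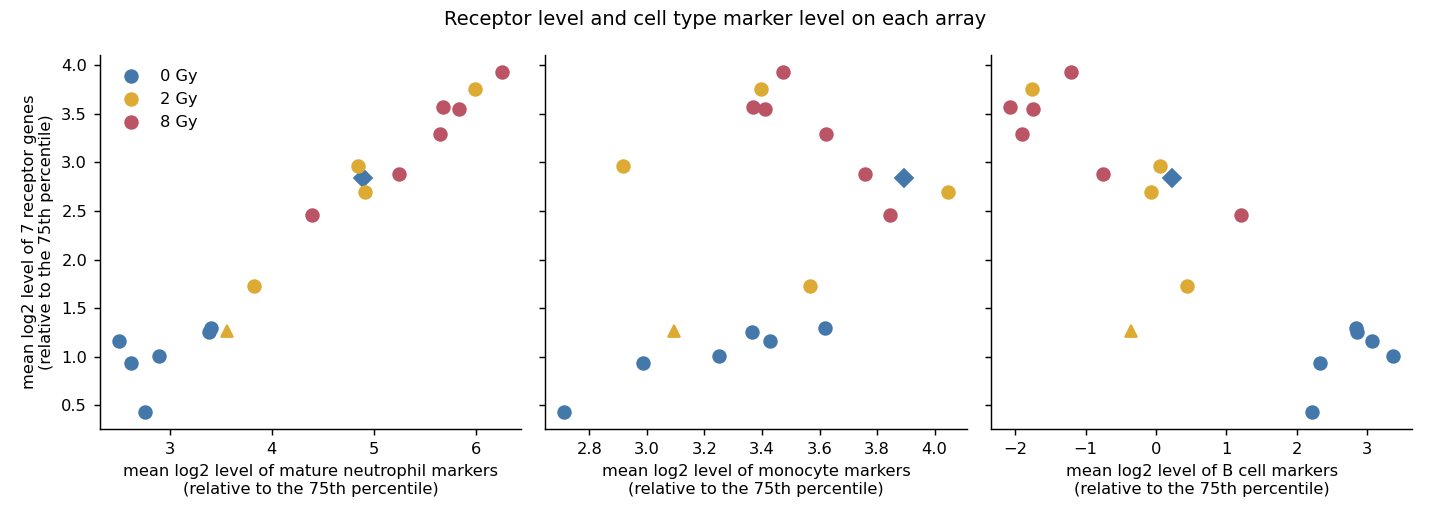
Mean log2 level of the 7 measured receptors (vertical axis) against the mean log2 level of 13 mature neutrophil, 14 monocyte or 12 B cell markers (horizontal axes), 1 point per array, coloured by dose; the diamond is 0 Gy replicate 5 and the triangle is 2 Gy replicate 3. The points of the neutrophil panel lie along a line across all doses, and the diamond lies at 4.89 and 2.84, among the irradiated arrays.

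With the mean of each dose removed, the correlation of a receptor with the mean neutrophil marker level over 18 arrays was 0.78 for Clec4d, 0.86 for Clec7a, 0.89 for Clec4n and for Trem3, 0.90 for Clec4e, 0.92 for Trem1 and 0.95 for Clec5a. These values are a description of arrays that also share slides and brightness. They include 0 Gy replicate 5, which was high for its group in both the receptors and the neutrophil markers. Set against single markers within arrays, Clec7a rose less than Csf3r, the G-CSF receptor of neutrophils, by 0.94 at 8 Gy against 0 Gy (exact 2-sided permutation, adjusted p = 0.0245 over 14 tests). Csf3r itself rose by 2.30 ± 0.49 (limma, adjusted p = 0.0147). The other 6 receptors differed from it by -0.60 to 0.39, with adjusted exact p from 0.0727 to 0.621. Csf1r, the M-CSF receptor of monocytes, differed by 0.36 ± 0.34 (limma, adjusted p = 0.475). Trem1 rose more than Csf1r by 2.28, Clec5a by 2.00, Clec4n by 1.54 and Clec4e by 1.39 (exact 2-sided permutation, adjusted p = 0.0245 for each). Clec4d, Clec7a and Trem3 exceeded it by 1.29, 0.95 and 1.38, with an adjusted exact p of 0.0727. The 5 calls of these 14 tests became 0 on RiboPure arrays alone, 9 without 8 Gy replicate 1 and 8 without 8 Gy replicate 2. The 14 tests were not planned either.

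Markers of other blood cells differed in direction among themselves. The shares over all genes at 8 Gy were 4.76% that fell and 7.22% that rose, and 14.4% rose without 0 Gy replicate 5. Of 12 B cell markers 12 fell at 8 Gy, with a median of -3.42, and 12 fell without 0 Gy replicate 5. Among them was Cd79a, a chain of the B cell receptor (-2.77 ± 0.49, limma, adjusted p = 0.00903). Fcer2a, Tnfrsf13c and Cd79b (-3.60) had the smallest p besides. Cd79a, Fcer2a and Tnfrsf13c were well above background in only 3 of 6 mice at 8 Gy, against 7 of 7 at 0 Gy, so the value for Cd79a is not an exact fold. Of 12 T cell markers 2 fell, Ccr7 (-1.53) and Cd8b1 (-1.32), and Cd8a (-1.10) and Cd5 (-0.45) did not pass. The count was 2 also without 0 Gy replicate 5. Of 10 NK and cytotoxic cell markers 0 passed, with Nkg7 (0.87), Klrb1c (0.86), Eomes (-0.70) and Gzmb (0.46) first by p, and 2 rose without 0 Gy replicate 5. Of 6 eosinophil and basophil markers Il5ra fell, and Siglecf (0.80), Ccr3 (-0.88) and Gata2 (0.77) did not pass. Il5ra was well above background in 2 of 6 mice at 8 Gy and 6 of 7 at 0 Gy, so no fold is given. Without 0 Gy replicate 5, 1 rose and 1 fell. Of 12 erythroid markers Epor (1.12) and Tal1 (1.15) rose, Alas2 (0.99) and Klf1 (0.95) did not pass, and the median was 0.83 with 12 of 12 differences positive. The count was 2 also without 0 Gy replicate 5. Of 11 platelet markers 3 rose, among them Pf4 (1.03) and Itgb3 (1.02), and Gp9 (1.08) did not pass. Their median was 1.02 with 11 of 11 differences positive, and 11 rose without 0 Gy replicate 5.

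The receptors also varied together within a dose. With dose means removed, the 21 pairs of measured receptors correlated with r from 0.65 (Clec4d with Clec4n) to 0.93 (Trem1 with Trem3) over 18 arrays. The 18 include 0 Gy replicate 5, the highest of its group in 7 of 7 receptors, and no value without it is given. The single array 8 Gy replicate 1 had the lowest level of its group in 7 of 7 receptors, and 8 Gy replicate 4 had the highest in 5 of 7. Across all 18 arrays, the genes whose pattern was most like that of Trem1 were Junb, Asprv1 and C5ar2 (r of 0.98 each). Those most like Trem3 were Tnfsf14 (0.98), C5ar2 and Sirpb1a (0.97 each), and those most like Clec5a were Purg, Arg2 and Lpcat2 (0.98 each). Clec4e was most like Nfam1 (0.98), Fes (0.97) and Slc2a6 (0.96), and Clec4d was most like Ebi3, Mrpl33 and S100a6 (0.97 each). Clec4n was most like Sema6b, Ifitm7 and Tnfaip2 (0.96 each), and Clec7a was most like the predicted gene LOC381484 (0.98), Sirpb1a (0.97) and Pfkfb4 (0.96). These correlations describe arrays that differ in dose, slide and brightness together.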

How the data were processed

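The members and gene lists were chosen with earlier results of these data known. The deposited scanner files hold an intensity per spot, background-subtracted and detrended by the scanner software, per the file headers (Agilent Feature Extraction 9.5.3.1). The authors' deposited value matrix holds a linear intensity with the same sorted values in every column (median 20.7), and each column correlated with its array's scanner values with r from 0.988 to 1.000, so scale and direction were the same and genes were not centred. The steps behind it are not given in the sources used here. limma is named in the submitters' processing notes without a step. The 18 arrays lay on 8 slides and were scanned on 7 days, per the file headers.

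Processed signals were averaged over the spots of a probe, with 45 outlier-marked values left out, taken to log2 and reduced by the log2 of the array's 75th percentile of spots. A probe was kept where 5 or more of the 18 arrays called it well above background, and the probe with the highest mean stood for a gene. Probe names were updated through RefSeq accessions (22941 probes) or symbols (6658 and 3109 older ones), and 1919 kept the file's name. limma 3.58.1 (R 4.3.3, statmod 1.5.0, data.table version 1.17.8) fitted dose and kit on all arrays, 2-sided, and was tested on simulated data. Exact permutation tests used Python 3.11.15 with numpy 2.4.6. The planned differences of members from Clec12a could not be computed, since its probe was at background, and pairs of the other members took their place. Replicates are separate mice per the labels.

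The genes named are the 8 members with every probe, up to 4 genes per list with the smallest p at 8 Gy, Csf3r, Csf1r, Cd79a, Fcer1g, Tyrobp, Syk and Card9, and the 3 genes most correlated with each member. A gene that this rule picks is not reported here. The 6 neighbouring family genes named are those of the lists that were tested. Cdkn1a, Phlda3 and Ccng1 were added to check the labels. Replicate numbers were checked for pairing: 15 same-number pairs of arrays correlated with r from -0.34 to 0.28 after removal of group means, so the numbers were not used to pair mice.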

Additional observations from a re-analysis of the deposited data

Results flagged for a closer look

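In 63 groups of arrays checked, 10 had 1 array far from the rest, where chance flags about 1 in 20 independent groups. These groups are not independent, since they come from the same 18 arrays and the receptors varied together. Most of the flags belong to 0 Gy replicate 5, so 10 of 63 is no test against that rate. The gap to the nearest array is given as a share of the group's range. The array labelled 0 Gy replicate 5 lay above its group for Clec4n (0.60, next -0.77, share 0.577), Trem3 (2.28, next 0.49, share 0.658) and both Trem1 probes (0.76 and 0.74, next -0.89 and -1.30, shares 0.636 and 0.698). The same array lay above its group for the mature neutrophil markers (4.89, next 3.41, share 0.622) and the mean of Cdkn1a, Phlda3 and Ccng1 (2.44, next 0.01, share 0.673), and below it for the B cell markers (0.22, next 2.22, share 0.633). At 8 Gy, replicate 1 lay below its group for the second Trem1 probe (0.08, next 1.56, share 0.686) and the platelet markers (6.68, next 7.52, share 0.707). Replicate 4 at 8 Gy lay below its group for the T cell markers (1.43, next 1.82, share 0.702).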

How the results depend on the processing

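The rise of a receptor at 8 Gy kept its sign in every alternative run, and so did the 2 Gy against 0 Gy and 8 Gy against 2 Gy differences, with values from 0.92 to 3.20, 0.54 to 2.33 and 0.02 to 1.47. At 8 Gy against 0 Gy the main count was 7, and the share of all genes called in either direction, in brackets below, was 12.0%. The count became 6 with normexp and quantile normalization (9.61%), with quantile normalization alone (8.39%) and with the authors' values (8.37%). It was also 6 with only the 2 doses fitted (6.09%) and with the scan day as a random block (6.23%). It was 5 without a filter (2.76%) and with the slide as a random block (4.54%). With the other percentile (16.9%), the filter of 9 arrays (13.9%), the mean of a gene's probes (11.5%) and no kit term (14.2%) it was 7. On RiboPure arrays alone it was 1, Trem1 (2.07%), and 7 there without 0 Gy replicate 5 (14.9%). It was 0 with array brightness as a covariate and, in alternatives chosen after seeing the data, 0 with a fixed term for slide or for scan day (0% in each). With the replicate number as a block (replicate block) it was 1, Trem1 (1.86%), and the numbers share no known source. Leaving out 1 array gave 2 to 7 (2.01% to 22.3%). At 2 Gy against 0 Gy the count of 0 (0.0587%) became 4 without 0 Gy replicate 5 (6.6%). It became 7 with both arrays of slide 4 left out (17.8%). It was 0 in all other alternatives. The slide 4 arrays were the highest at 0 Gy and the lowest at 2 Gy, so leaving them out was bound to widen the difference. At 8 Gy against 2 Gy and between kits the count was 0 in all alternatives run. The share of higher genes among all calls at 8 Gy was 60.3% (985 higher, 649 lower), against 43.3% with normexp, 45.6% with quantile normalization, 45.2% with the authors' values and 37.6% with the percentile over probes detected on all arrays. That last scaling moved the median of all genes from 0.06 to -0.12, and the receptors' rises there were 1.26 to 2.63. Within arrays, the 5 calls among member pairs were 13 with quantile normalization or the deposited table, 0 on RiboPure arrays and 0 to 6 leaving out 1 array. The 6 against adaptors were 3 on RiboPure arrays and 4 to 7 leaving out 1 array. The 5 against Csf3r and Csf1r were 0 on RiboPure arrays and 4 to 9 leaving out 1 array. The 15 against neighbours were 15 in all of these. The differences from Clec12a planned for these alternatives were not run, because its probe was at background on all arrays. The cause of these changes was not tested. With 18 arrays, 8 slides and unequal kits, dose, slide and brightness are partly mixed, and a gene at background, such as Clec12a, has no measured change.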
